A study of Drosophila melanogaster with 9 samples.

Results

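The binding of KDM5 was compared with H3K4me3, the mark it acts on, in wildtype Drosophila melanogaster of the w1118 genotype. Both libraries came from female whole animals 1 to 3 days old, and the labels do not say whether the same batch of flies served for both. One chromatin immunoprecipitation sequencing (ChIP-seq) library was made with an antibody against KDM5 and 1 with an antibody against H3K4me3, so 2 of the 9 samples of the series were used and no value has a replicate check. The members were chosen as all peaks of these 2 lists on chromosome arms 2L, 2R, 3L, 3R, 4 and X, which left 8547 of 8948 KDM5 peaks and 4636 of 7287 H3K4me3 peaks. No sucrose or paraquat feeding, which other samples of the series received, is recorded for either group. Whole animals mix many cell types, so a site with both peaks need not carry both in the same cell.

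KDM5 is a histone demethylase of the JmjC family that removes methyl groups from lysine 4 of histone H3, and in flies it is encoded by the gene little imaginal discs. It also carries a PHD finger that binds H3K4me3, so the enzyme can both read and erase the mark. H3K4me3 sits on nucleosomes next to the starts of active genes, mostly on the side of the transcribed gene body.

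Read totals are not given in the lists, so sequencing depth is unknown. Height is given here as pileup, the number of ChIP fragments stacked at a peak's summit as the authors' peak caller gave it. Widths and pileups of the lists are not on 1 scale. The shortest KDM5 peak on the arms was 206 bp and the shortest H3K4me3 peak 100 bp, and KDM5 pileups came in steps of 0.892 fragments while H3K4me3 pileups were whole numbers. KDM5 pileups ran from 50.9 to 361, with a median of 204, and H3K4me3 pileups from 27 to 181, with a median of 40. Heights were therefore compared between the lists by rank. Widths were compared by rank as well, and where intervals are set against each other in bp the unequal shortest widths enter the result. The smallest gap between neighbouring peaks was 101 bp in both lists, so stretches closer than that do not appear as separate peaks.

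H3K4me3 peaks were found mostly at tall KDM5 peaks, and most H3K4me3 peaks on the arms met a KDM5 peak of some height. Of the 8547 KDM5 peaks 3194, or 37.4% (95% Wilson interval 36.4 to 38.4), were overlapped by an H3K4me3 peak by at least 1 bp, and these are called joint sites here. In the other direction 4095 of the 4636 H3K4me3 peaks, or 88.3% (87.4 to 89.2), met a KDM5 peak. Intervals cover counting error only, and peaks of 1 library are not replicates. Here unmarked and without the mark mean that no overlapping H3K4me3 peak was called. Depth is unknown, so such KDM5 peaks are not shown to lack H3K4me3. Joint sites had a median KDM5 pileup of 307 fragments, with quartiles of 279 and 326, against 111 fragments with quartiles of 75.8 and 198 at the 5353 KDM5 peaks without the mark. The upper quartile of the peaks without the mark thus lay below the lower quartile of the joint sites. Their median widths were 1102.5 bp and 642 bp.

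The share of KDM5 peaks with the mark climbed steeply over a short range of KDM5 height. In the lowest decile of KDM5 pileup, 50.9 to 67.8 fragments, 7 of 854 peaks, or 0.82% (0.398 to 1.68), held H3K4me3. In the fifth decile, 145 to 204 fragments, the share was 12.0% (10.03 to 14.4), and in the seventh, 256 to 287 fragments, it was 61.1% (57.8 to 64.3). In the highest decile, 326 to 361 fragments, it was 94.2% (92.4 to 95.5). These shares lie on both sides of the 37.4% found over all KDM5 peaks, and neighbouring deciles from the third upward had intervals that did not overlap. By KDM5 width the climb was less steep and stopped in the middle. The share was 57.3% (53.9 to 60.5) in the seventh decile, 956 to 1084 bp, and 56.3% (52.9 to 59.5) in the ninth, 1287 to 1755 bp, before it reached 80.2% (77.4 to 82.8) in the widest decile.

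**Figure D1:**
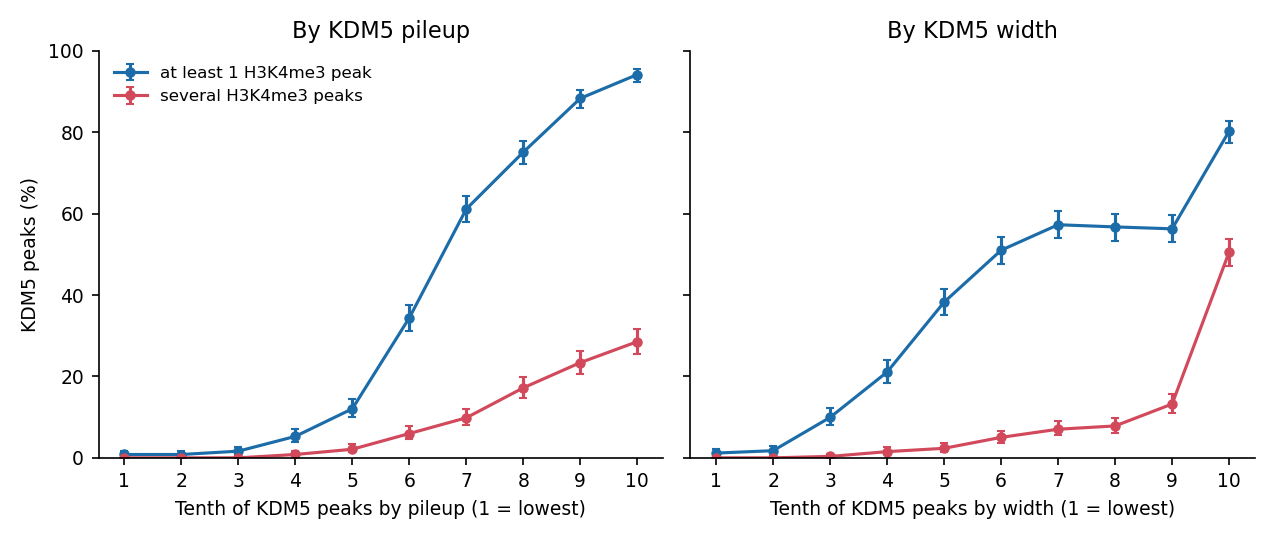
Share of wildtype KDM5 peaks on the arms (y axis, percent) with at least 1 (blue) or several (red) H3K4me3 peaks, by decile of KDM5 pileup (left, x axis) and of KDM5 width (right, x axis); bars are 95% Wilson intervals. By pileup the blue line climbs from 0.82% to 94.2%, and by width the red line stays at or below 13.2% until the widest decile, where it is 50.5%.

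The number of H3K4me3 peaks followed KDM5 width more closely than their presence did. A wider KDM5 peak has room for more separate H3K4me3 peaks, so part of this is built in, and how much was not tested. Among KDM5 peaks with pileups of 204 to 298 fragments, the third class of 4 equal ones, the mark was found in 50.9% (47.0 to 54.7) of the 639 peaks in the second width class of 528 to 841 bp. It was found in 56.3% (52.8 to 59.8) of the 767 peaks in the next class, up to 1165 bp, and in 52.1% (48.4 to 55.8) of the 698 still wider peaks. In the same 3 groups several H3K4me3 peaks were found in 2.66% (1.67 to 4.22), 6.78% (5.21 to 8.78) and 18.3% (15.6 to 21.4). Over all KDM5 peaks this share was 8.79%. Among the tallest peaks, at 298 fragments and above, the mark was found in 78.2% (72.3 to 83.2) of 216 peaks in the second width class, 88.4% (86.0 to 90.5) of 786 in the next and 90.1% (88.3 to 91.7) of 1135 in the widest. Several were found there in 3.24% (1.58 to 6.54), 8.27% (6.54 to 10.4) and 40.3% (37.4 to 43.1). A wide but low KDM5 peak rarely met a called H3K4me3 peak, with 23 of 289 peaks, or 7.96% (5.36 to 11.7), at pileups of 92.8 to 204 fragments and widths of at least 1165 bp.

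Most joint sites held a single H3K4me3 peak. Of the 8547 KDM5 peaks 2443 held 1, 627 held 2, 97 held 3, 24 held 4 and 3 held 5 or more. The 751 peaks with several are 8.79% of all KDM5 peaks. The median width of the KDM5 peak went up with the number, from 1026 bp with 1 to 1792 bp with 2, 2279 bp with 3 and 2661.5 bp with 4. The median KDM5 pileups of these classes were 304, 314, 319 and 324 fragments. Whether the height limit of 368 fragments described below bears on their likeness was not tested. Counted per length, KDM5 peaks with 1 H3K4me3 peak had 0.878 per kb. Those with 2, 3 and 4 had 1.12, 1.295 and 1.298 per kb. These classes are set by the number of H3K4me3 peaks itself, so a rise across them is partly built in. By decile of KDM5 width, with unmarked peaks included, the value rose from 0.0467 per kb in the narrowest decile to 0.634 in the seventh. In the eighth, ninth and widest deciles it was 0.552, 0.475 and 0.638 per kb. At sites with 1, 2, 3 and 4 H3K4me3 peaks, the tallest had median widths of 339, 363, 391 and 379.5 bp and median pileups of 41, 45, 45 and 48 fragments. The tallest was picked from more peaks in the later classes, so these are not like measures.

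As called, with a larger shortest width in the KDM5 list, the KDM5 peak was the larger interval in nearly all pairs. Of the 4104 overlapping pairs 3932, or 95.8% (95.2 to 96.4), had the H3K4me3 peak wholly inside the KDM5 peak, and in 17 pairs the H3K4me3 peak was the wider one. H3K4me3 covered a median of 33.8% of the KDM5 width at joint sites, with quartiles of 21.6% and 47.8%. At sites with 1 H3K4me3 peak this was 32.1% and at sites with several 38.0%. In 9 cases 1 H3K4me3 peak reached over 2 KDM5 peaks, which lay 104 to 219 bp apart. These 9 were wide, at 261 to 1512 bp with a median of 833 bp, against a median of 307 bp for H3K4me3 peaks in 1 KDM5 peak. To reach both KDM5 peaks an H3K4me3 peak must be longer than the gap, so the width of these 9 is partly built in. The widest of them lay on X (dm3, positions 9086699 to 9088210), with a pileup of 44 fragments and a fold enrichment of 2.90 over the local background.

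Inside the KDM5 peak the mark was most often found beside the centre, except in narrow KDM5 peaks. At the 2443 sites with a single H3K4me3 peak, its summit lay in the central 20% of the KDM5 width at 21.5% (19.9 to 23.2) of sites, where an even spread would put 20%. The next 20% of the width held 29.3% (27.6 to 31.2) on the left and 30.3% (28.5 to 32.1) on the right, and the outermost 20% held 8.64% (7.59 to 9.82) and 8.60% (7.55 to 9.77). The outermost 10% held only 1.35% and 1.23%. In 95.8% of all pairs the H3K4me3 peak lay wholly inside the KDM5 peak, which keeps its summit off the ends. An even spread is therefore a guide only, and how much of the pattern follows from this was not tested. By KDM5 width, the central 20% was the fullest in peaks of 500 to 800 bp, with 30.9% (26.5 to 35.7) of 382 H3K4me3 summits against 28.5% (24.2 to 33.3) and 29.6% (25.2 to 34.3) beside it, which are within each other's intervals. Below 500 bp it held 35.9% (22.7 to 51.6) of 39, against 15.4% (7.25 to 29.7) and 17.9% (8.98 to 32.7). From 800 to 1100 bp it held 21.8% (19.3 to 24.4) of 1020, against 31.2% (28.4 to 34.1) and 31.5% (28.7 to 34.4), and it was also lower than its neighbours in both wider classes. Left and right follow the reference strand and not the direction of genes, and the pattern is alike on both sides. The KDM5 summit itself avoided the centre more strongly at the same sites, with 14.8% (13.4 to 16.2) in the central 20% and 37.4% (35.5 to 39.3) and 36.9% (35.0 to 38.8) beside it. At KDM5 peaks without H3K4me3 the central 20% held 30.9% (29.7 to 32.2) of summits, but these peaks are also narrower and lower.

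The central share was lower with the mark in 2 of 5 classes of KDM5 width, with intervals that did not overlap in 1 of them. Within 1 range of KDM5 pileup, 204 to 298 fragments, the difference was within the counting error in the 3 width classes compared. Heights in this range were still not equal, and were higher with the mark. With and without it, median pileups were 266 and 246 fragments at 500 to 800 bp. They were 277 and 252 at 800 to 1100 bp, and 278 and 252 at 1100 to 1500 bp. At widths of 800 to 1100 bp the KDM5 summit lay in the central 20% in 10.4% (8.67 to 12.4) of 1020 peaks with 1 H3K4me3 peak and in 18.5% (16.3 to 21.03) of 1025 peaks without. Their median KDM5 pileups were 304 and 189 fragments. Among those of this width with pileups of 204 to 298 fragments the shares were 12.5% (9.64 to 16.1) of 408 and 13.2% (10.03 to 17.1) of 349, which lie within each other's intervals. At 1100 to 1500 bp the shares were 8.47% (6.50 to 10.97) of 602 and 13.5% (10.9 to 16.7) of 547, and in the same range of pileup 14.1% (9.67 to 20.1) of 170 and 15.8% (11.6 to 21.2) of 221. At 500 to 800 bp they were 23.8% (19.8 to 28.3) of 382 and 22.9% (20.9 to 25.1) of 1513, and in the same range of pileup 23.7% (18.6 to 29.6) of 228 and 23.6% (18.7 to 29.3) of 246. In the narrowest and the widest class the share was higher with the mark, within overlapping intervals. It was 56.4% (41.0 to 70.7) of 39 with and 50.9% (48.7 to 53.2) of 1934 without below 500 bp, and 22.75% (18.9 to 27.1) of 400 with and 17.7% (13.9 to 22.1) of 334 without at 1500 bp and over.

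**Figure D2:**
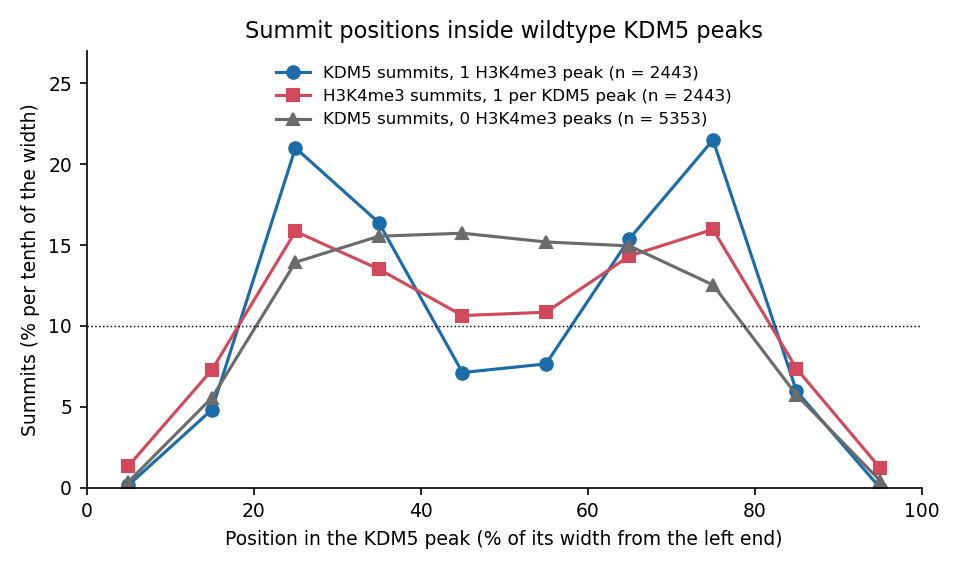
Position of summits across the KDM5 peak (x axis, percent of its width from the left end on the reference strand) against the share of summits in each 10% of the width (y axis, percent). An even spread is dotted as a guide only. KDM5 summits at sites with 1 H3K4me3 peak (blue) and the H3K4me3 summits there (red) dip near the middle, to 7.12% and 10.6%, while KDM5 summits without H3K4me3 (grey), from narrower and lower peaks, reach 15.7% there.

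The mark and the KDM5 summit lay on the same side. At 2082 of the 2443 single sites, or 85.2%, the KDM5 summit stood more than 10% of the width away from the midpoint. At 1886 of these 2082, or 90.6% (89.3 to 91.8), the H3K4me3 summit was on the same side of the midpoint. The median distance between the summits was 73 bp, with quartiles of 34 and 133 bp, while each of them stood a median of 205.5 bp from the KDM5 midpoint. Summits were within 100 bp of each other at 64.1% (62.2 to 66.0) of single sites and over 500 bp apart at 2.66% (2.09 to 3.38). Neither order prevailed: where both were on 1 side, the H3K4me3 summit was the outer one at 51.1% (49.0 to 53.2) of 2124 sites. The H3K4me3 summit was left of the KDM5 summit at 50.6% (48.6 to 52.6) of sites.

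The base at the KDM5 summit was inside the H3K4me3 peak at 82.8% (81.3 to 84.3) of single sites and the KDM5 midpoint at 51.8% (49.8 to 53.8). H3K4me3 covered a median of 32.1% of the width of these peaks, which is a share of bases per site and not a like measure to these shares of sites. When each KDM5 peak was turned so that its summit lay to the right of its midpoint, H3K4me3 covered the base 150 bp to the right at 69.0% (67.1 to 70.8) of single sites and the base 150 bp to the left at 23.0% (21.3 to 24.7). At 300 bp the shares were 53.0% (51.1 to 55.02) on the summit side and 6.88% (5.94 to 7.95) on the other. The H3K4me3 peak ended a median of 152 bp from the nearer end of the KDM5 peak and 494 bp from the farther end. Coverage at the summit was lower, at 72.95% (70.3 to 75.4), over all joint sites with KDM5 pileups under 80% of the height limit described below. Over all joint sites, which include these, it was 84.1% (82.8 to 85.3). The contrast with the remaining sites is therefore larger than these values show.

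**Figure D3:**
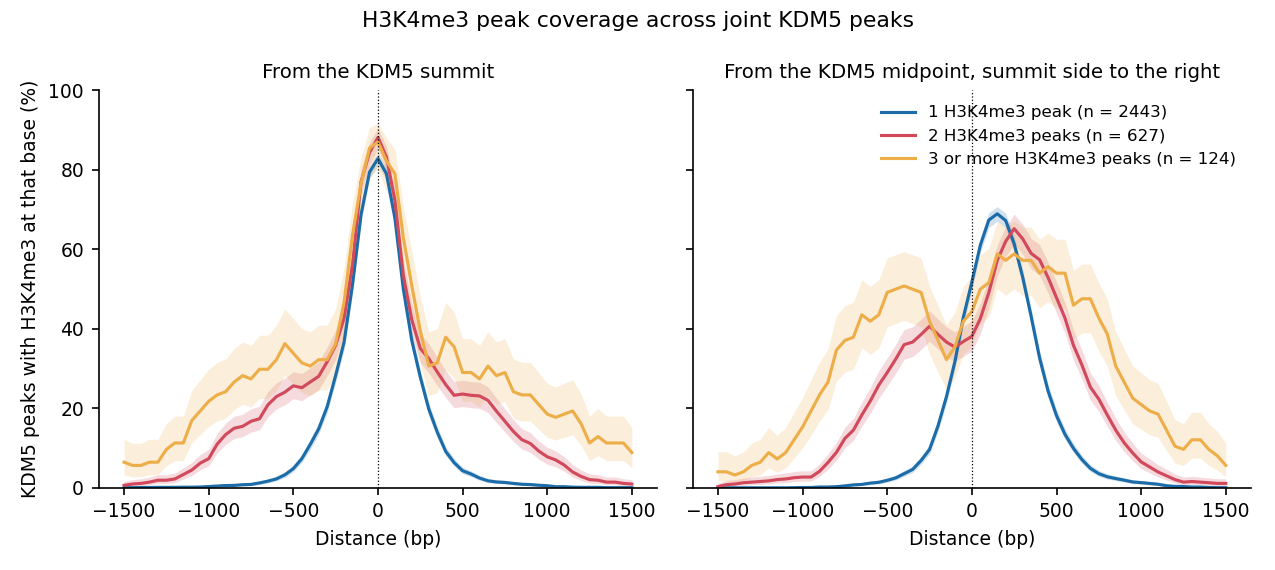
Share of joint KDM5 peaks (y axis, percent) whose base at a given distance (x axis, bp) lies in an H3K4me3 peak, for sites with 1 (blue), 2 (red) and 3 or more (yellow) H3K4me3 peaks, with 95% Wilson bands. From the KDM5 summit (left) all 3 lines peak at 82.8% to 88.2%, and from the midpoint with the summit side turned to the right (right) the blue line is at 69.0% at 150 bp and 6.88% at -300 bp, where the red line is at 38.6%.

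At the 627 KDM5 peaks with 2 H3K4me3 peaks, the 2 were sorted into nearer and farther by distance from the KDM5 summit. The nearer distance is thus the smaller of 2 by choice and is not a like measure to the distance of a single peak. The nearer H3K4me3 summit was a median of 68 bp from the KDM5 summit, with quartiles of 31 and 121 bp, and the farther one 544 bp, with quartiles of 373 and 727.5 bp. The KDM5 summit was inside 1 of the H3K4me3 peaks at 553 sites, or 88.2% (85.4 to 90.5), between them at 49, or 7.81% (5.96 to 10.2), and outside both at 25. The summit of the farther peak was on the opposite side of the KDM5 midpoint from the KDM5 summit at 484 sites, or 77.2% (73.7 to 80.3). This peak was picked for its distance from the KDM5 summit within the same KDM5 peak, so this share is partly built in. The peak nearer the KDM5 summit was the taller one at 67.3% (63.5 to 70.9) of sites, with equal pileups at 20 sites, and the wider one at 69.2% (65.5 to 72.7). Median pileups were 43 fragments for the nearer and 37 for the farther peak, and median widths 347 and 206 bp.

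Gaps between neighbouring H3K4me3 peaks were measured only within 1 KDM5 peak, so its width bounds them. The smallest was 101 bp, and gaps between H3K4me3 peaks elsewhere were not measured for comparison. Over the 910 neighbouring pairs the gap had a median of 220 bp, with quartiles of 140 and 386 bp, and 46.7% (43.5 to 50.0) of gaps were at most 200 bp. Their summits stood a median of 531 bp apart, with quartiles of 362 and 748 bp. The median gap was 226 bp at sites with 2 peaks and 198 bp at sites with 3 or more. When H3K4me3 peaks less than 200 bp apart were joined, the KDM5 peaks with several fell from 751 to 443. With peaks of −log10 q of at least 5 in both lists, which left 2189 H3K4me3 peaks, 194 KDM5 peaks had several.

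The 3 KDM5 peaks with 5 or more H3K4me3 peaks were long. The first lay on 2L (dm3, positions 2766225 to 2770799), was 4575 bp wide with a KDM5 pileup of 314 fragments and a fold of 9.86, and held 8 H3K4me3 peaks at 30 to 50 fragments. Its KDM5 summit stood near the left end, and the mark extended to 4211 bp right of it. The widest KDM5 peak of the arms, 6568 bp on X (7826054 to 7832621), had a pileup of 343 fragments and held 7 H3K4me3 peaks. Its tallest were 1064 and 1157 bp wide, with pileups of 71 and 72 fragments and folds of 4.92 and 3.64, and the first of these covered the KDM5 summit. A 4505 bp peak on 2L (4965553 to 4970057) held 5 H3K4me3 peaks of 30 to 44 fragments. Of the 24 KDM5 peaks with 4, the one of highest KDM5 pileup is shown beside them. This 2263 bp peak on 2R (19731192 to 19733454) had a KDM5 pileup of 353 fragments and held 4, of which the one over the KDM5 summit was 737 bp wide and the others 131 to 190 bp. With H3K4me3 peaks under 200 bp apart joined, the numbers were 5, 3, 5 and 2.

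**Figure D4:**
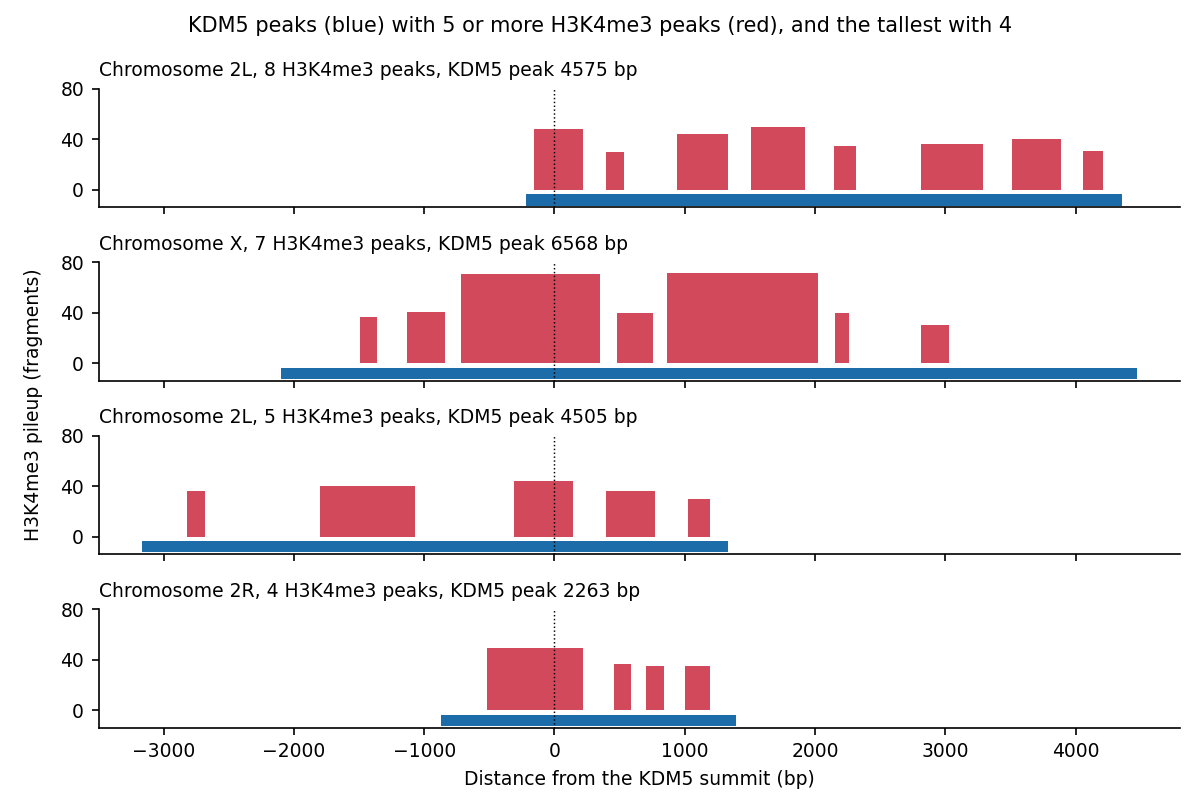
Extent of the 3 KDM5 peaks with 5 or more H3K4me3 peaks and of the tallest of the 24 with 4 (blue bars) and the H3K4me3 peaks in them (red, height is pileup in fragments on the y axis) by distance from the KDM5 summit (x axis, bp). In each an H3K4me3 peak covers the KDM5 summit, and the KDM5 peaks are 4575, 6568, 4505 and 2263 bp wide.

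Ranks agreed only loosely at the 3194 joint sites. For each site the tallest overlapping H3K4me3 peak was used. Spearman's rank correlation across sites was 0.37 for pileup against pileup and 0.26 for width against width, as descriptions over sites that share 2 libraries, the caller's background and base composition. Of the 807 sites in the upper 25% by KDM5 pileup, 340, or 42.1% (38.8 to 45.6), were in the upper 25% by H3K4me3 pileup. For width the share was 303 of 799, or 37.9% (34.6 to 41.3). Unrelated ranks would give about 25%. Pileup percentiles were within 10 points of each other at 27.3% (25.8 to 28.8) of sites and over 50 points apart at 13.1% (12.0 to 14.3). For width these shares were 23.6% (22.1 to 25.1) and 17.3% (16.1 to 18.7).

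Over all joint sites the height of KDM5 had a higher rank correlation with the width of the mark than with its height. The rank correlation was 0.47 between KDM5 pileup and H3K4me3 width, against 0.37 for pileup. At the 2022 sites with the tallest KDM5 peaks, over 80% of the height limit described below, both were 0.30, and at the other 1172 they were 0.30 and 0.079. It was 0.20 between KDM5 width and H3K4me3 pileup. From the lowest to the highest decile of KDM5 pileup at joint sites, the median H3K4me3 width went from 183 bp, with quartiles of 131.5 and 261 bp, to 495.5 bp, with quartiles of 379.5 and 631 bp. The quartile ranges of the end deciles did not overlap. The median H3K4me3 pileup went from 38 fragments, with quartiles of 33 and 44.5, to 48 fragments, with quartiles of 43 and 54. Within the H3K4me3 list the width and pileup of the same peaks had a rank correlation of 0.60, so the measures of the mark are not independent of each other.

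The width agreement differed with how a site's H3K4me3 was counted and with the number of its H3K4me3 peaks. With the widths of all H3K4me3 peaks of a site added, the rank correlation for width was 0.43, against 0.26 with the tallest peak. It also differed between site classes without summing, at 0.21 over the 2443 sites with a single H3K4me3 peak and 0.46 with the tallest peak at the 751 sites with several, where summed widths gave 0.63. In 95.8% of pairs the H3K4me3 peak lay wholly inside the KDM5 peak, so KDM5 width bounds the summed width. Several peaks with gaps between them also need a wide KDM5 peak. How much of the higher values follows from this was not tested. The mean number of H3K4me3 peaks per site went from 1.06 in the narrowest decile of KDM5 width to 2.05 in the widest. By KDM5 width the median width of the tallest H3K4me3 peak was 221 bp in the narrowest decile, stayed between 296 and 400 bp in the next 8 and was 474.5 bp in the widest.

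**Figure D5:**
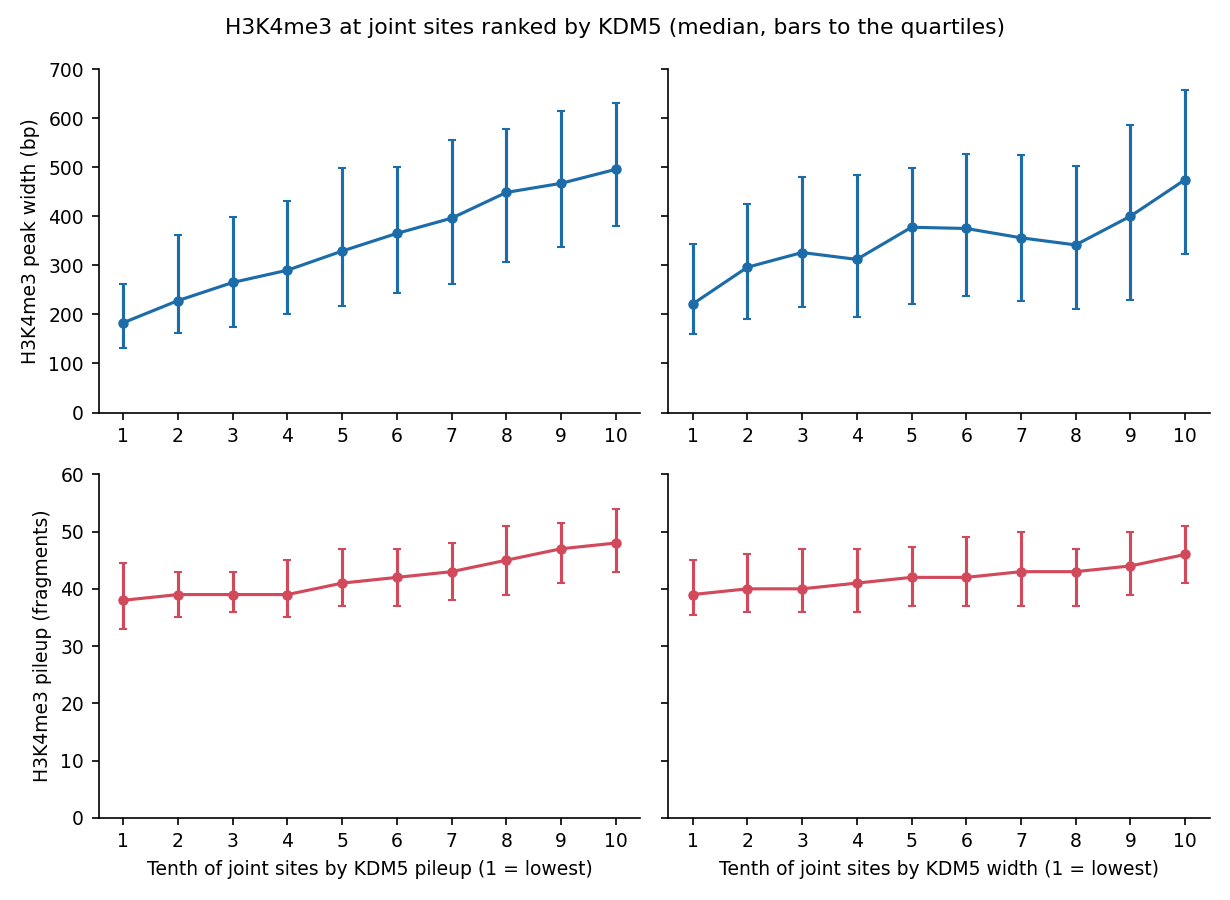
Width in bp (upper row, y axis) and pileup in fragments (lower row, y axis) of the tallest H3K4me3 peak at joint sites, by decile of KDM5 pileup (left column) and of KDM5 width (right column); points are medians and bars reach the quartiles. H3K4me3 width goes from 183 to 495.5 bp over the deciles of KDM5 pileup, while H3K4me3 pileup goes from 38 to 48 fragments.

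KDM5 pileups of joint sites lay close together at the top, where the highest decile spanned 338 to 361 fragments and the lowest 59.8 to 238. The product of 2, the shortest peak width and the step gives 368 fragments for KDM5 and 200 for H3K4me3, which is the height that could not be passed if each strand of each position counted once and the shortest width were the fragment length. Whether reads were counted so is not given in the sources used here. The tallest KDM5 peak reached 98.3% of this limit. KDM5 pileups of at least 80% of it were found at 63.3% (61.6 to 65.0) of joint sites and at 5.47% (4.90 to 6.12) of KDM5 peaks without H3K4me3. No joint site reached 80% of the H3K4me3 limit. At the 2022 joint sites at or over 80% of the KDM5 limit the rank correlation for pileup was 0.30, and at the 1172 sites under it 0.079. For width the values were 0.19 and 0.070. Each of these classes spans a narrower range of KDM5 height than all joint sites.

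Rank correlations were also taken at sites of low local background, a setting chosen after seeing the data. At the 1663 joint sites where the background implied by the caller's values was within 10% of its lowest in both lists, the rank correlation for pileup was 0.43 and for width 0.27. Over all joint sites these were 0.37 and 0.26. With fold enrichment in place of pileup the rank correlation over all joint sites was 0.41. Among the 5 joint sites with the highest mean of the 2 pileup percentiles, the first lay on X (15031633 to 15033478), with 352 fragments and a fold of 8.84 for KDM5 and 76 fragments and a fold of 3.13 for H3K4me3. Its H3K4me3 peak was 1219 bp wide, with a summit 616 bp from the KDM5 summit and past the end of the KDM5 peak. The second, on 3L (15959644 to 15962241), had pileups of 349.7 and 91 fragments but folds of only 3.94 and 2.30, with an implied background of 88.0 fragments for KDM5 and 39.0 for H3K4me3, against lowest values of 31.0 and 13.6.

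The other 3 of these sites ranked high by H3K4me3 fold as well, at percentiles of 93.8 to 99.7, and at percentiles of 52.5, 99.2 and 87.9 by KDM5 fold. On 3R (6155540 to 6158321) the KDM5 and H3K4me3 pileups were 353 and 68 fragments, the folds 8.96 and 3.78, and the summits 2 bp apart. On X (11243010 to 11246123) they were 349 and 72 fragments with folds of 10.9 and 4.99, summits 3 bp apart and 3 H3K4me3 peaks in 3114 bp of KDM5. On 3L (19908047 to 19909465) they were 358 and 64 fragments with folds of 10.3 and 3.96 and summits 83 bp apart.

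Some joint sites ranked at opposite ends of the lists. The KDM5 peak on 3R at 4165751 to 4167597 was in the 96.2 percentile of joint sites by KDM5 pileup, at 345 fragments, and its only H3K4me3 peak, 189 bp wide with 32 fragments, in the 5.46 percentile. By fold the difference between its percentiles was 36.8 points, against 90.8 by pileup. Peaks on X (17042988 to 17044507), 3R (7044734 to 7045878) and X (15826790 to 15827938) were alike, with KDM5 pileups of 339, 345 and 348 fragments and H3K4me3 pileups of 31, 33 and 34. At all 4 the weak H3K4me3 peak still stood at the KDM5 summit, 9, 3, 28 and 94 bp from it. In the opposite direction a KDM5 peak of 212 bp on 3L (23193334 to 23193545), in the 0.908 percentile at 108 fragments, lay wholly in an H3K4me3 peak of 535 bp and 66 fragments. By fold its percentiles differed by -60.2 points, KDM5 minus H3K4me3, against -97.1 by pileup. Peaks on 2L (21431980 to 21432918), 3R (21676328 to 21676992) and 2L (4458915 to 4459675) had KDM5 pileups of 156, 120 and 161 fragments and H3K4me3 pileups of 70, 64 and 69. At the last 2 the tallest H3K4me3 summit was 549 and 523 bp from the KDM5 summit and outside the KDM5 peak.

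Most peaks without a partner lay over 1000 bp from the other list, with 12.0% (9.54 to 15.0) of such H3K4me3 peaks and 15.8% (14.8 to 16.8) of such KDM5 peaks nearer than that. For these KDM5 peaks the gap to the nearest H3K4me3 peak had a median of 7258 bp. Gaps from other positions on the arms were not measured for comparison. The 541 H3K4me3 peaks with no KDM5 peak had a median width of 161 bp, against 308 bp for those with one, and the gap to the nearest KDM5 peak had a median of 12084 bp. They differed little in pileup, with medians of 39 and 40 fragments, and more in fold, at 2.19 and 2.60. By H3K4me3 width the share with KDM5 went from 74.9% (72.3 to 77.3) in the narrowest 25% to 98.8% (98.0 to 99.3) in the widest 25%. Of the 4 tallest H3K4me3 peaks without KDM5, the one on 2L at 12520341 to 12520775 had 181 fragments at a fold of 6.67, and the other 3 had 140 to 146 fragments at folds of 1.49 to 1.65, with implied backgrounds of 88.0 to 96.1 fragments. The 4 tallest KDM5 peaks without H3K4me3 reached 352 and 353 fragments, and lay on 3L (16370540 to 16371728), 2L (21680458 to 21682219), 3R (26032478 to 26034804) and X (7793686 to 7795440). The nearest H3K4me3 peak was 7144, 21300, 149386 and 558 bp away from them.

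Most measures were close on the large arms. The share of H3K4me3 peaks with KDM5 was an exception, at 92.3% (90.6 to 93.8) on 3R against 86.2% (83.8 to 88.4) on X, 87.0% (84.6 to 89.0) on 2R, 87.8% (85.5 to 89.8) on 3L and 88.1% (85.8 to 90.1) on 2L. The share of KDM5 peaks with H3K4me3 was 36.2% to 39.9% on 2L, 2R, 3L, 3R and X, the median summit distance at single sites 66 to 79 bp and the median coverage of the KDM5 width 33.3% to 34.1%. The rank correlation for width was 0.22 to 0.28 on these arms. The rank correlation for pileup was 0.23 on 2L and 0.36 to 0.42 on the other 4. Chromosome 4 had 14 joint sites among 107 KDM5 peaks, or 13.1% (7.96 to 20.8), with a median summit distance of 80.5 bp, and is too small for a rank correlation of its own.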

How the data were processed

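The members, results and alternatives were chosen with earlier results of these data known. CASAVA 1.4, Bowtie, MACS2 and the build dm3 are named in the submitters' processing notes. For Bowtie and MACS2, versions and settings were not given in the sources used here, nor was the matching input. Per the labels' protocols, libraries were selected at 150 to 350 bp. Peaks were listed per library and not pooled. The lists have no header, and their columns follow a MACS2 peak table. The deposited values are positions and widths in bp, the pileup (a signal), −log10 p-values and q-values, and the fold ratio over the local background, as the authors' caller wrote them. The local background was recovered as (pileup + 1)/fold − 1.

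Peaks were paired by an overlap of at least 1 bp in Python 3.11.15 with pandas 2.3.3, and the counts equalled those of bedtools 2.31.1. Ranks are within the joint sites. Shares have 95% Wilson intervals from SciPy 1.17.1. With 1 library a group no test was run. The functions were tested on simulated data. Named sites follow a rule: the highest mean pileup percentile, the most H3K4me3 peaks, the largest differences in percentile, and the tallest peaks without a partner. The anti-HA lists were left out, inputs were not analysed here, and genes and sequences are not given because no dm3 genome was used.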

Additional observations from a re-analysis of the deposited data

Results flagged for a closer look

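Peaks outside the chromosome arms were not used in the comparisons, and the lists differ in them. They number 2651 in the H3K4me3 list, or 36.4% (95% Wilson interval 35.3 to 37.5), of which 2466 are on the unplaced set Uextra. In the KDM5 list they number 401, or 4.48% (4.07 to 4.93), of which 322 are on Uextra. Off the arms the median fold was 2.20 for H3K4me3 and 3.21 for KDM5. The difference has no replicate.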

How the results depend on the processing

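No paired analysis was possible because each list comes from 1 library and no test was run. An alternative counts as unmoved when it stays within the 95% interval of the value as reported, or within 1.5 times for a count. Of 74 alternatives, 31 were unmoved and 43 moved. Of these, the 19 for rank correlations could have changed sign, and none did. Of 43 further alternatives, for shares of the upper 25% and for named sites, 20 moved. Leaving out chromosome 4 or X moved none of the results. Settings on the height limit and the local background were chosen after seeing the data. Depth is unknown, so a KDM5 peak without a called H3K4me3 peak is not shown to lack the mark.

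With summits within 250 bp, 33.7% of KDM5 peaks had H3K4me3 and 63.2% of H3K4me3 peaks had KDM5, and with the H3K4me3 summit inside the KDM5 peak the latter was 87.1%. With −log10 q of at least 5 in both lists these shares were 23.5% and 94.7%, and 194 KDM5 peaks held several H3K4me3 peaks. The central 20% of the width held 19.7%, the summit distance over all pairs was 81 bp against 99 bp as reported, 88.5% of KDM5 summits were covered, 38.1% of the width was covered, and the rank correlation for pileup was 0.23. With the upper 50% of each list the values were 45.7%, 92.0%, 218 peaks, 20.5%, 82 bp, 89.1% and 37.9%, with a rank correlation of 0.21 for width and 0.28 for pileup. With H3K4me3 peaks at least as wide as the shortest KDM5 peak they were 29.1%, 95.04%, 341 peaks, 88 bp, 90.4% and 37.6%, with a rank correlation of 0.32 for pileup. Joining H3K4me3 peaks left 443 KDM5 peaks with several.

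With single sites only the summit distance was 73 bp, the covered width 32.1% and the rank correlation for width 0.21. H3K4me3 midpoints fell in the central 20% at 25.4%, midpoints of both lists were 218 bp apart, and 48.8% of KDM5 midpoints were covered. Under 80% of the height limit the central 20% held 23.5%, the distance was 90 bp, coverage 72.95%, and the rank correlation 0.070 for width and 0.079 for pileup. The rank correlation for pileup was 0.32 with summed pileups, 0.41 with folds and 0.43 at the lowest background, and the rank correlation for width was 0.43 with summed widths.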
